A study of Rattus norvegicus with 22 samples.

Results

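Integrins and laminins are the receptors and the matrix proteins through which epithelial cells are held on the basement membrane. The genes described here are 32 of the 19167 gene symbols on the array that code for an integrin subunit (23 genes) or a laminin chain (9 genes). They were found by their symbols, and 3 further symbols that match the pattern, Itgb1bp1, Itgb1bp2 and Itgb3bp, were left out because they code for integrin binding proteins. Itgax, Itga2b, Itga8, Lama2 and Lamb4 have no probe under those names on the array.

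The samples were 11 pairs of tongue tissue from male F344 rats of about 33 weeks. Each rat received 4-nitroquinoline-1-oxide (4-NQO), a DNA-damaging carcinogen, at 20 ppm in its drinking water for 10 weeks and gave 1 piece of oral squamous cell carcinoma (OSCC) and 1 piece of adjacent, phenotypically normal tongue, taken 23 to 26 weeks after the first exposure. GEO's labels call every sample untreated and give the normal pieces no treatment, while the deposited protocol takes both tissues from rats given 4-NQO, and that protocol is followed here, so the normal tissue was exposed to the carcinogen too. Both pieces are whole tissue that holds epithelium, muscle, vessels and leukocytes.

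An integrin is a heterodimer of 1 alpha and 1 beta subunit. In oral epithelium the alpha6 beta4 integrin joins basal keratinocytes to the laminin beneath them in hemidesmosomes, alpha3 beta1 binds the same laminin in focal contacts, and alphav beta6 binds fibronectin and tenascin and activates latent TGF-beta. Leukocytes carry their own set, in which beta2 or beta7 pairs with alphaL, alphaM, alphaD, alpha4 or alphaE and holds the cells to vessel walls and to epithelium. A laminin is a cross-shaped trimer of an alpha, a beta and a gamma chain, and Lama3 and Lamb3 code for the alpha and beta chains of the one that anchors epithelium.

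Each gene was read by a probe of 60 bases, the brightest one where a gene has several. The sequences below are examples from the chains that were compared with a partner or read by a further probe, and not every such chain is shown. The 2 probes of Itgam, the alphaM chain (CD11b), lie on the plus strand of rn4 at chr1:187385524-187385583 (the brighter) and at chr1:187385032-187385565 (the dimmer, whose target is split in the genome). They share a run of 34 bases, shown in capitals.

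Itgam, brighter: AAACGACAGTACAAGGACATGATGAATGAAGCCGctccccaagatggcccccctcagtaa

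Itgam, dimmer: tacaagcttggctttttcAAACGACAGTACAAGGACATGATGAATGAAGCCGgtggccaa

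The other probes shown belong to chains whose differences were set beside those of a partner or beside another probe of the gene. On the plus strand of rn4, the Itgav probe spans chr3:67020431-67020995 and the Lamb3 probe spans chr13:109187343-109189861. On the minus strand, the brighter Itgb5 probe is at chr11:68644285-68644344, the dimmer Itgb1 probe at chr19:58611137-58611196 and the dimmer Lamc1 probe at chr13:68251375-68252423. A span over the 60 bases of the probe means that its target is split in the genome. Capitals mark nothing in these lines.

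Itgav: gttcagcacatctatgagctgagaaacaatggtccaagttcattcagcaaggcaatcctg

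Lamb3: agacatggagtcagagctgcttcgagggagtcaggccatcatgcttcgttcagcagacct

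Lamc1, dimmer: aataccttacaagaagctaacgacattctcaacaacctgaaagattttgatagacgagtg

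Itgb1, dimmer: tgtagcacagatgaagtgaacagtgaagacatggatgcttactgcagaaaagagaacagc

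Itgb5, brighter: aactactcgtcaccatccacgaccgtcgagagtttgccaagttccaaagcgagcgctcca

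Levels are log2 signals relative to the 75th percentile of the array, so that 0 is the level of that percentile, and a difference is the OSCC level minus the normal level. A gene was called where limma, with animal and tissue as terms, gave a Benjamini-Hochberg adjusted p below 0.05 over all 30367 probes and the mean difference was at least 2-fold. Of the 32 genes, 9 were called higher in OSCC, 2 were called lower and 21 were not called. Over all gene symbols 7.48% were called higher and 7.24% lower, 14.7% in either direction. The median difference was 0.37 over the 32 genes and -0.21 over all symbols. The difference was positive in all 11 animals for 5 of the 32 and negative in all for 1, against 4.67% and 5.91% of all symbols. In pieces of whole tissue, fewer cells of a type and less RNA per cell cannot be told apart.

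The arrays were not balanced over scan days. All 11 normal pieces and the OSCC of animals 4 and 9 were scanned on one day and the other 9 OSCC pieces on another, and no slide held both tissues. With scan day as a term only animals 4 and 9 inform the tissue difference, and none of the 32 genes was called at the adjusted p, against 0.0157% of all symbols; at an unadjusted p below 0.05 and 2-fold, 6 were higher and 4 lower, against 6.21% and 23.0% of all symbols. The study names animals 21, 22 and 24 as variable, and where a call changed without those 3 pairs the value is given with the gene. Within animals 4 and 9 each of the 11 called genes had the sign of its mean difference.

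**Figure D1:**
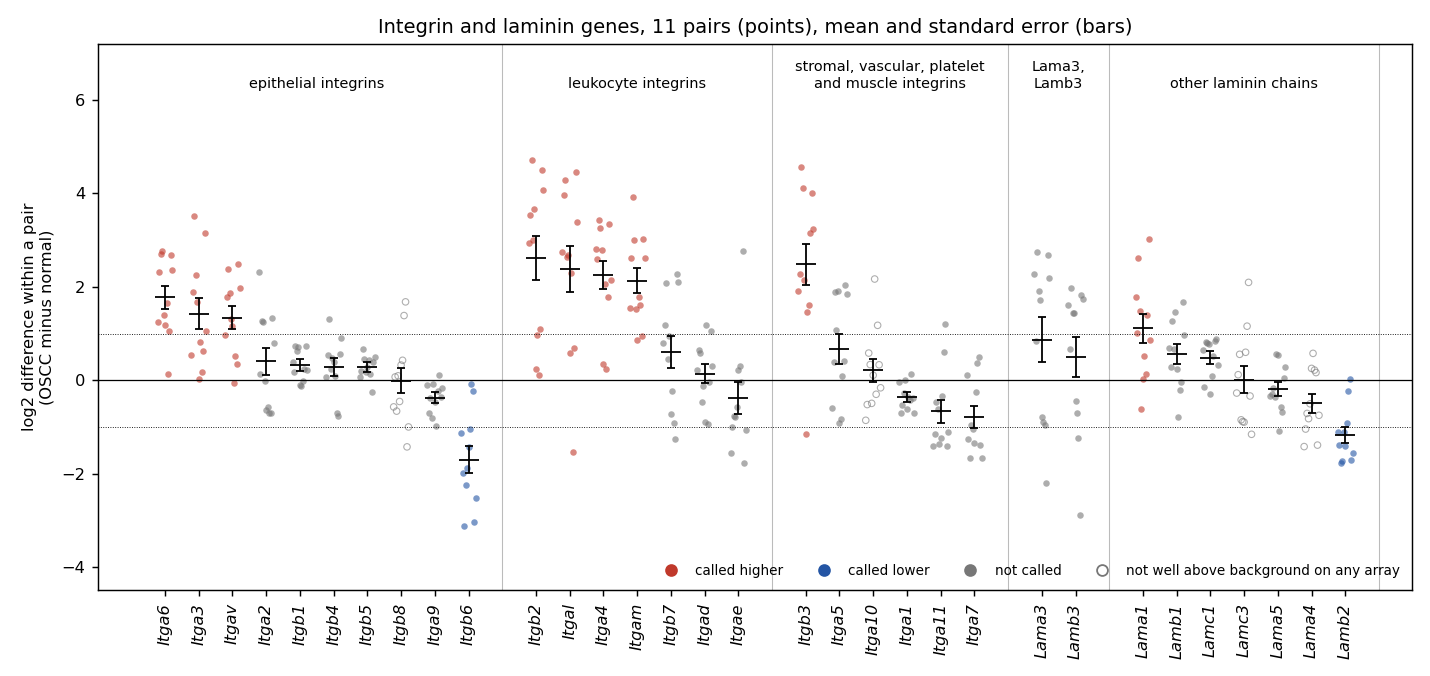
Log2 difference (OSCC minus normal, vertical axis) of each of the 32 genes in the 11 animals (points), with the mean and standard error (bars), ordered by group; dotted lines mark a 2-fold change and open points genes nowhere well above background. Itgb2, Itgal, Itga4 and Itgam lead the leukocyte group, whose median was 2.13, while Itgb6 and Lamb2 are the 2 genes called lower.

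Leukocyte integrins made the group with the highest median difference, 2.13 over 7 genes, of which 4 were called higher and none lower. Itgb2, the beta2 chain (CD18) shared by most leukocyte integrins, had levels of -3.45, -2.54 and -1.66 (lowest, median, highest) in normal tissue and -2.31, 0.55 and 1.73 in OSCC. Its OSCC levels lay above the highest normal level in 9 of 11 animals, and the tissues overlapped. The mean difference was 2.62 ± 0.47 (SE, n = 11 pairs; limma adjusted p = 0.0014), which is 6.16-fold, and it was positive in all 11 animals.

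Itgam pairs with Itgb2 on neutrophils and macrophages. Its levels were -2.14, -1.20 and 0.21 in normal tissue and -0.47, 1.39 and 1.80 in OSCC, again with overlap. The difference was 2.13 ± 0.27 (SE, n = 11; adjusted p = 0.0003), 4.38-fold, and positive in every animal. The dimmer probe, which shares the 34 bases, gave 2.40 ± 0.52 (adjusted p = 0.0040) and was positive in 10 of 11 animals.

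Itgal is the alphaL chain of LFA-1, a beta2 integrin of leukocytes. Its normal levels were -6.53, -5.20 and -3.96, well above background on 1 of 11 arrays, and its OSCC levels were -5.84, -2.31 and -1.32, well above background on 8. The tissues overlapped, and the difference was 2.38 ± 0.50 (SE, n = 11; adjusted p = 0.0032), positive in 10 animals and -1.54 in animal 22. Itga4, the alpha4 chain that binds VCAM-1, was well above background on no normal array (-6.27, -5.95 and -5.23) and was so on 9 OSCC arrays (-5.60, -3.25 and -2.37). Its difference was 2.26 ± 0.31 (adjusted p = 0.0004), positive in all animals, and because the normal level is only a bound, the rise was at least 1.28-fold. That bound is set against the lowest signal of any probe well above background on each normal array. Under normexp correction Itgal (0.67, adjusted p = 0.095) and Itga4 (0.54, adjusted p = 0.30) were not called.

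The other leukocyte chains were not called. Itgb7, the beta7 partner of alpha4 and alphaE, had levels of -1.57, -1.18 and -0.37 in normal tissue and -2.07, -0.22 and 0.91 in OSCC, a difference of 0.61 ± 0.35 (adjusted p = 0.16), positive in 7 animals and, without the pairs of animals 21, 22 and 24, 1.14 (adjusted p = 0.011), which is called. Itgad, the alphaD chain, had levels of -4.03, -3.90 and -3.03 against -4.10, -3.74 and -1.92, a difference of 0.14 ± 0.21 (adjusted p = 0.58), positive in 6 animals. Itgae, the alphaE chain of T cells that lie within epithelium, was well above background on no normal and 1 OSCC array. Its levels were -6.72, -6.11 and -5.31 against -7.91, -6.62 and -3.95, with a difference of -0.39 ± 0.34 (adjusted p = 0.36), positive in 3 animals. The signs of Itgad and Itgae turned with quantile normalization (-0.06 and 0.16). All 3 chains overlapped between the tissues.

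Leukocyte markers were read beside these chains. Of 4 general ones 2 were called higher and none lower, and their summed level ran from 2.49 to 3.64 in normal tissue and from 2.52 to 5.03 in OSCC. All 5 neutrophil markers, Csf3r, Cxcr2, S100a8, S100a9 and Fcgr3a, were called higher (summed level -0.59 to 2.21 against 0.72 to 8.63). So were 5 of 6 macrophage markers (1.51 to 2.62 against 2.04 to 4.28) and 4 of 6 T cell markers (-0.71 to 1.36 against -0.34 to 2.41). Among B and plasma cell markers 2 of 4 were called higher (-3.88 to -2.57 against -3.02 to 2.50). Within animals, the summed level of the 4 general markers fell by 0.85 in animal 22 and 0.30 in animal 24 and changed by 0.03 in animal 17, and in these animals Itgb2 differed by 0.10, 1.09 and 0.23. The part of these markers in the integrin differences was not tested.

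Epithelial integrins, 10 genes, held 3 called higher and 1 called lower, with a median difference of 0.31. Itga6, the alpha6 chain of hemidesmosomes, had levels of -4.26, -3.38 and -2.88 in normal tissue and -3.21, -1.61 and -0.12 in OSCC. In 9 of 11 animals the OSCC level lay above the highest normal level. The difference was 1.77 ± 0.24 (SE, n = 11; adjusted p = 0.0004), 3.42-fold, and positive in all animals. Under normexp background correction it fell to 0.99, short of 2-fold by a small margin, with an adjusted p of 0.0089.

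Its partner Itgb4, the beta4 chain that carries the link to keratin filaments, was not called. Levels of Itgb4 were 3.13, 3.60 and 4.13 in normal tissue and 2.84, 3.79 and 5.23 in OSCC, with a difference of 0.28 ± 0.18 (adjusted p = 0.21), positive in 9 of 11 animals. The 2 animals with a negative Itgb4 difference, 22 (-0.70) and 24 (-0.76), also had the lowest Itga6 differences (0.13 and 1.05).

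Itgb6 was the epithelial chain that fell. This subunit pairs with alphav alone and is known to be restricted to epithelium. It had levels of 1.07, 1.48 and 1.78 in normal tissue and -1.39, -0.47 and 1.45 in OSCC, and 9 OSCC levels lay below the lowest normal level. The difference was -1.70 ± 0.29 (SE, n = 11; adjusted p = 0.0010), 3.25-fold lower, and negative in all 11 animals, from -3.12 in animal 11 to -0.09 in animal 22.

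Itgav, which codes for its alphav partner and is also used by many other cells, moved the other way. Levels were -4.30, -3.88 and -3.25 in normal tissue, well above background on 6 arrays, and -3.93, -2.36 and -1.68 in OSCC, well above background on 10. The difference was 1.34 ± 0.24 (adjusted p = 0.0014), 2.54-fold, and positive in 10 animals. With normexp correction it was 0.61 (adjusted p = 0.10).

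Itga3, the alpha3 chain that binds epithelial laminin, was called higher on dim signals. It was well above background on no normal array (-5.86, -5.55 and -4.24) and was so on 4 OSCC arrays (-5.69, -3.96 and -1.83). The difference was 1.43 ± 0.33 (adjusted p = 0.0052) and positive in all 11 animals, and no fold is given because the bound on it was below 1. Under normexp correction the difference was 0.19 (adjusted p = 0.99).

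**Figure D2:**
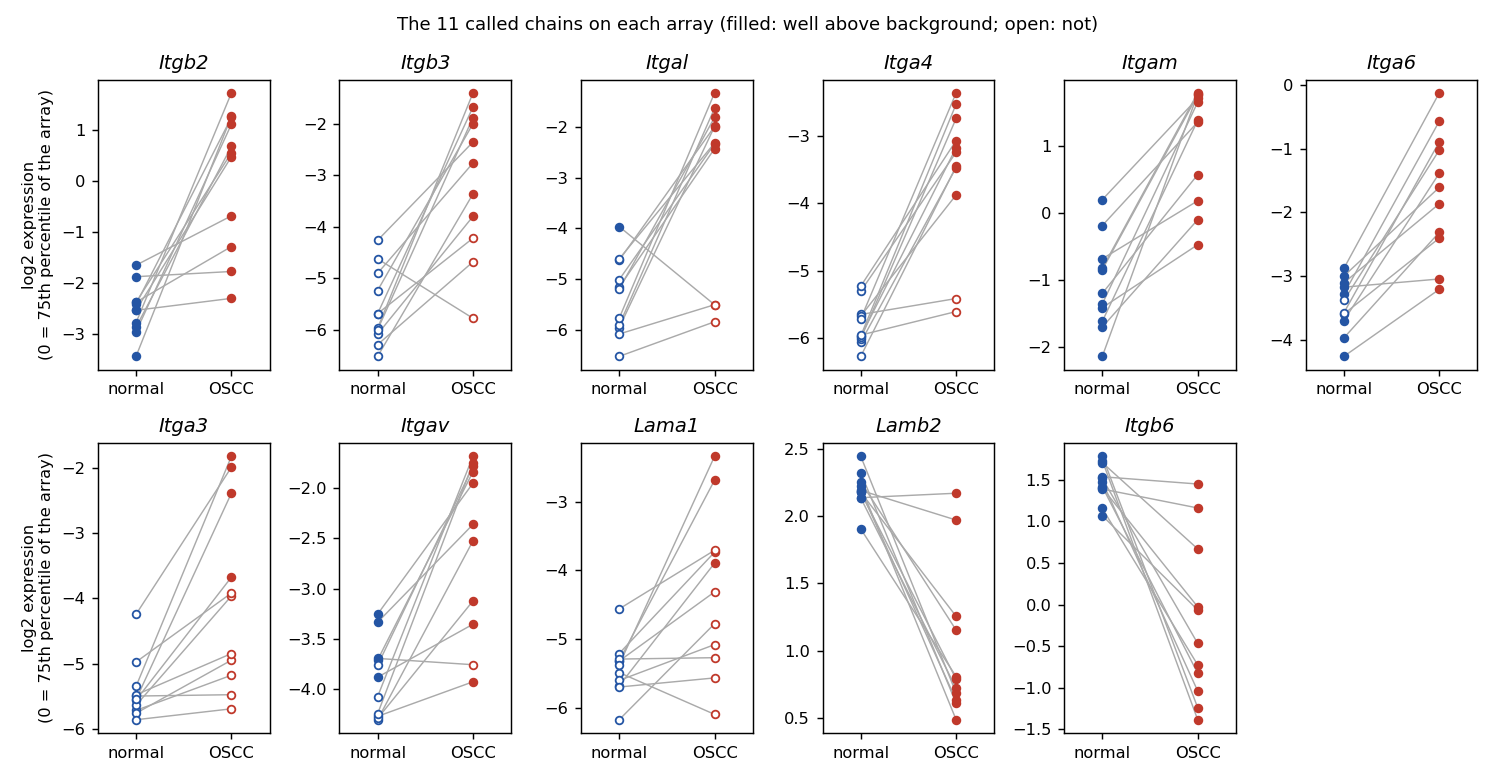
Log2 level (vertical axis; 0 is the 75th percentile of the array) of the 11 called genes in normal tissue and OSCC, with lines joining the pieces of 1 animal; filled points are well above background and open points are not. Itgam, Itgb2, Itgb6 and Lamb2 were well above background on all arrays, while Itga4, Itgb3, Itga3 and Lama1 were so on no normal array.

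The remaining epithelial chains were not called. Itgb1, the common beta1 partner of many alpha chains, had levels of 2.53, 2.81 and 2.94 against 2.51, 3.03 and 3.68 and a difference of 0.33 ± 0.12 (adjusted p = 0.042), under 2-fold and positive in 8 animals. Itgb5, an alphav partner, had levels of 1.88, 2.13 and 2.28 against 1.63, 2.37 and 2.79 and a difference of 0.28 ± 0.10 (adjusted p = 0.046), positive in 10 animals. Itga9, a tenascin receptor chain, had levels of -0.76, -0.22 and 0.04 against -1.53, -0.57 and -0.06 and a difference of -0.38 ± 0.12 (adjusted p = 0.027), positive in 1 animal.

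Itga2, the collagen receptor alpha2, was well above background on no normal and 4 OSCC arrays. Its levels were -6.13, -5.08 and -4.51 against -5.97, -4.75 and -3.24, a difference of 0.41 ± 0.29 (adjusted p = 0.26), positive in 6 animals. Itgb8 was nowhere well above background. For all 9 epithelial chains that were measured above background somewhere, the levels of the 2 tissues overlapped, as they did for every one of the 32 genes; of all symbols 0.694% did not overlap with OSCC higher and 0.965% with OSCC lower.

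Of 4 measured markers of basal epithelium none was called higher and 1 lower, Krt15 (-2.54, adjusted p = 7.0e-05), and their summed level ran from 7.78 to 8.43 in normal tissue and from 4.65 to 8.91 in OSCC, the lowest being animal 24 (a difference of -3.62). In the other 10 animals the summed level differed by -0.81 to 1.08. Of 5 suprabasal markers 1 was called higher and none lower (7.55 to 9.64 against 7.48 to 9.31). The part of the epithelial content in these integrin differences was not tested.

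The stromal, vascular, platelet and muscle integrins, 6 genes, held 1 called higher and none lower, with a median difference of -0.07. Itgb3, the beta3 chain of platelets, osteoclasts and new vessels, was well above background on no normal array (-6.51, -5.69 and -4.26) and was so on 8 OSCC arrays (-5.77, -2.76 and -1.40). The difference was 2.48 ± 0.44 (SE, n = 11; adjusted p = 0.0013), at least 1.76-fold, and positive in 10 animals, with -1.15 in animal 17. Under normexp correction it was 0.66 (adjusted p = 0.086).

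Itga7, the laminin receptor of skeletal muscle, differed by -0.78 (adjusted p = 0.020), Itga11, a collagen receptor of fibroblasts, by -0.66 (adjusted p = 0.045) and Itga1, another collagen receptor, by -0.36 (adjusted p = 0.025), each under 2-fold. Itga5, the fibronectin receptor chain, differed by 0.67 (adjusted p = 0.10), and Itga10, whose brighter probe was nowhere well above background, by 0.21 (adjusted p = 0.48). Of 7 skeletal muscle markers 5 were called lower, with a summed level of 9.93 to 11.0 in normal tissue and 6.30 to 11.1 in OSCC. In animals 21, 22 and 24 the muscle level was higher in OSCC by 0.77, 0.32 and 0.71, and without these 3 pairs Itga7 (-1.16, adjusted p = 0.0011) and Itga11 (-1.10, adjusted p = 0.0003) were called lower.

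Fibroblast markers were called higher for 5 of 6 genes (5.73 to 6.56 against 5.63 to 8.78), platelet markers for 2 of 4 (1.27 to 2.29 against 1.35 to 3.75) and endothelial markers for none of 6 in either direction (3.33 to 3.91 against 1.97 to 3.88). The platelet count leaves out Itga2b, and Gp9 in it was nowhere well above background. Both probes described as Itga2b, given below, were called lower (-1.15 and -1.72), but not under normexp correction. Of 4 smooth muscle markers 1 was called lower (3.52 to 4.66 against 3.28 to 5.02), and of 6 gland acinus markers 5 were called higher (-3.23 to 1.30 against 1.08 to 11.8). The part of these tissues in the differences of stromal integrins and laminins was not tested.

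**Figure D3:**
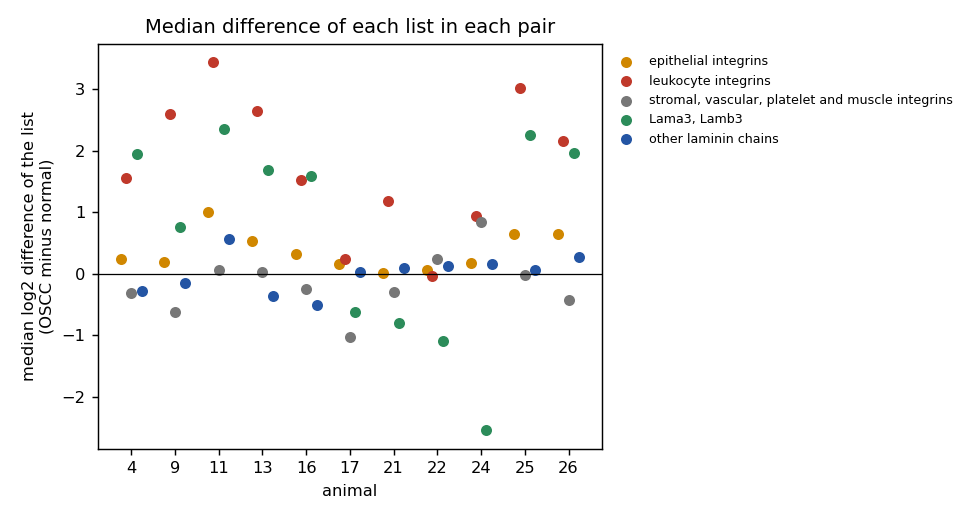
Median log2 difference (OSCC minus normal, vertical axis) of each of the 5 groups of genes in each animal (horizontal axis). Lama3 and Lamb3 run from -2.55 in animal 24 to 2.36 in animal 11, and the leukocyte integrins from -0.05 in animal 22 to 3.43 in animal 11.

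Laminin chains, 9 genes, held 1 called higher and 1 called lower, with a median difference of 0.48. Lama3, the alpha3 chain of epithelial laminin, had levels of -2.0, -1.29 and -0.99 in normal tissue and -3.21, -0.14 and 1.65 in OSCC. The difference was 0.87 ± 0.48 (SE, n = 11; adjusted p = 0.15), positive in 7 animals. Lamb3, the beta3 chain of the same trimer, had levels of 0.57, 1.27 and 1.69 against -1.39, 2.04 and 3.64 and a difference of 0.49 ± 0.43 (adjusted p = 0.35), also positive in 7 animals. For both chains the OSCC pieces held the highest and the lowest level, and neither was called over the 11 pairs.

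Between animals Lama3 and Lamb3 varied widely and together. In animal 25 the differences were 2.68 for Lama3 and 1.84 for Lamb3, and in animal 11 they were 2.74 and 1.97. In animal 24 they were -2.21 and -2.89, in animal 22 they were -0.95 and -1.24, and in animal 17 they were -0.78 and -0.45. Both were positive in the same 7 animals and both negative in animals 17, 21, 22 and 24.

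Without the pairs of animals 21, 22 and 24 Lama3 (1.70, adjusted p = 0.0039) and Lamb3 (1.28, adjusted p = 0.0029) were called higher. Leaving out animal 24 alone brought a call for Lama3 (1.17, adjusted p = 0.038). Animal 24 was also the one with the lowest basal epithelium level in OSCC, and animals 21, 22 and 24 were those with a higher muscle level in OSCC, as given above. In animals 17, 21, 22 and 24, where both chains were lower, the basal epithelium level differed by -0.35, 0.64, -0.81 and -3.62. The muscle level in these animals differed by -1.14, 0.77, 0.32 and 0.71. The part of tissue content in the Lama3 and Lamb3 differences was not tested.

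Of the other laminin chains, 7 genes, 1 was called higher and 1 lower, with a median difference of 0.01. Lamb2, the beta2 chain of muscle, nerve and vessel basement membranes, had levels of 1.91, 2.19 and 2.45 in normal tissue and 0.49, 0.79 and 2.17 in OSCC, and 9 OSCC levels lay below the lowest normal level. The difference was -1.17 ± 0.18 (SE, n = 11; adjusted p = 0.0007), 2.25-fold lower, and positive in 1 animal. Lama1, the alpha1 chain of embryonic laminin, was well above background on no normal array (-6.17, -5.37 and -4.56) and was so on 4 OSCC arrays (-6.09, -4.31 and -2.34). The difference was 1.11 ± 0.31 (adjusted p = 0.014), positive in 10 animals, with no fold given because the bound was below 1, and under normexp correction it was 0.07 (adjusted p = 1.0). The call was also lost with quantile normalization (0.95), with the array median (0.91), without animal 11 (0.96) or animal 25 (0.92), and without the pairs of animals 4 and 9 (1.05, adjusted p = 0.061).

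Lamb1, the widespread beta1 chain, differed by 0.57 (adjusted p = 0.051), Lamc1, the gamma1 chain of most laminins, by 0.48 (adjusted p = 0.018, under 2-fold) and Lama5, the main alpha chain of adult epithelium, by -0.19 (adjusted p = 0.33). The probes used for Lama4 and Lamc3 were nowhere well above background. Another probe, described as Lama4 but listed under no matching symbol, was well above background on all arrays and differed by 0.45 (adjusted p = 0.069).

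Of the 32 genes 6 had a further probe, and for several the 2 probes disagreed. The dimmer Itgb1 probe, 10605 bases from the brighter one in the genome and farther from the 3′ end, had levels of -0.91, -0.28 and 0.10 in normal tissue and 0.08, 0.86 and 1.38 in OSCC. It gave 1.05 ± 0.17 (SE, n = 11; adjusted p = 0.0009), a call that the brighter probe at 0.33 did not give, and was positive in all 11 animals. The dimmer Lamc1 probe, 10365 bases farther from the 3′ end, gave 1.46 ± 0.17 (adjusted p = 0.0002), also positive in all animals, against 0.48 for the brighter. Under normexp correction these dimmer probes of Itgb1 and Lamc1 gave 0.88 and 0.85, under 2-fold, and were not called.

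Itgb5 had probes of opposite sign. The brighter one gave 0.28 and was positive in 10 animals, and the dimmer one, 1724 bases nearer the 3′ end, had levels of -0.21, -0.01 and 0.21 in normal tissue and -0.69, -0.49 and -0.15 in OSCC. Its difference was -0.41 ± 0.10 (adjusted p = 0.0061) and negative in all 11 animals, under 2-fold. With both probes averaged Itgb5 differed by -0.07, so its direction depends on the probe. For Itga10 and Lamc3 the dimmer probes gave 0.63 (1 normal array had no value) and -0.61 and were not called.

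**Figure D4:**
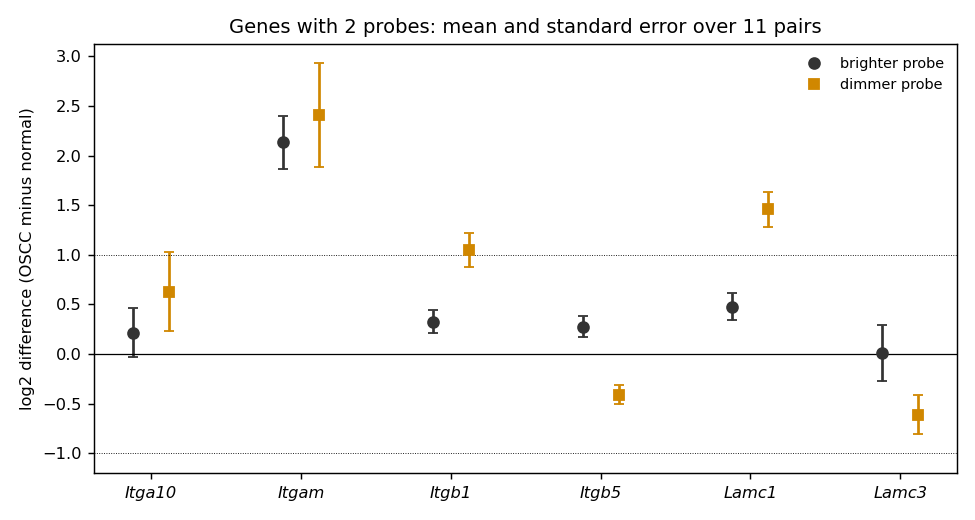
Mean log2 difference (OSCC minus normal, vertical axis) with its standard error over 11 pairs for the brighter (circles) and the dimmer (squares) probe of the 6 genes that have 2; dotted lines mark a 2-fold change. The dimmer probes of Itgb1 (1.05) and Lamc1 (1.46) pass 2-fold where the brighter ones (0.33 and 0.48) do not, and those of Itgb5 have opposite signs.

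Genes that the symbol rule missed were read by their description or by their current RefSeq symbol. The 2 probes described as Itga2b, the alphaIIb chain of platelets, gave -1.15 and -1.72 and were called lower, with no animal positive. The tissues did not overlap for the second of these, whose signal was well above background in 8 normal and 1 OSCC pieces. Under normexp correction they gave -0.60 (adjusted p = 0.091) and -0.62 (adjusted p = 0.36). The 2 probes of Itga8, a chain of smooth muscle and pericytes, gave 0.67, not called, and 1.20, called higher. The called one passed background in 1 normal and 9 OSCC pieces, and its call was lost under normexp correction (0.46, adjusted p = 0.43), with quantile normalization (0.98, under 2-fold) and without the pairs of animals 4 and 9 (1.23, adjusted p = 0.055). A probe described as Lama2, the chain of muscle laminin, gave -0.20 and was not called.

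Chains that form 1 receptor or 1 laminin were compared across animals. The per-animal differences of 12 pairs of chains were correlated, with a permutation test and Benjamini-Hochberg adjustment over the 12, and 6 passed an adjusted p of 0.05. Where animals fell into separate clusters, only the larger cluster was used. All of these differences share the scaling of their arrays, and each share of genes is over all gene symbols, read against the chain named first.

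Itgav and Itgb6 were inversely related over the 11 animals (Pearson r = -0.92, permutation p = 0.00015, adjusted p = 0.0018; Spearman rho = -0.95, permutation p = 4.0e-05). Without the 2 animals farthest from the median of Itgav it was -0.98, and over the 9 pairs scanned on different days it was -0.92. In animal 25 Itgav differed by 2.49 and Itgb6 by -3.02, and in animal 22 they differed by 0.53 and -0.09. The normal Itgav signal was not well above background in animals 9, 11, 17, 25 and 26. In these animals the Itgav differences, among them the largest, are therefore taken against signals too dim to count as measured. Of all gene symbols 1.97% were as far below 0 in their correlation with Itgav.

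Lama3 and Lamb3 were directly related. Over the 7 animals of the larger cluster they had r = 0.97 (exact permutation p = 0.0012, adjusted p = 0.0071; rho = 0.93, exact permutation p = 0.0067). Without the 2 animals farthest from the median of Lama3 it was 0.91, and over the 5 of these pairs scanned on different days it was 0.95. The 4 animals left out were those in which both chains were lower in OSCC.

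Pairs with beta1 also passed. Itgb1 had r = 0.81 with Itga3 (n = 11, permutation p = 0.0031, adjusted p = 0.012; rho = 0.73), 0.80 with Itga5 (n = 11, permutation p = 0.0060, adjusted p = 0.017; rho = 0.84) and 0.79 with Itga2 (n = 10, permutation p = 0.013, adjusted p = 0.025; rho = 0.66). Without the 2 farthest animals these were 0.70, 0.70 and 0.64, and 1.33%, 1.25% and 7.10% of symbols were as close to the alpha chain. Itgae and Itgb7 were inversely related (n = 10, r = -0.79, permutation p = 0.0072, adjusted p = 0.017, rho = -0.75, and r = -0.71 without the 2 farthest). The only array with Itgae well above background was the OSCC of animal 24, the animal left out of this correlation. The relation therefore rests on Itgae signals too dim to count as measured, and no link between these chains is drawn from it. Itga3 and Itga2 were well above background on no normal and 4 OSCC arrays each, so their differences are taken against signals not well above background. By Spearman's rho Itga2 with Itgb1 did not pass (adjusted p = 0.076, permutation).

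The hemidesmosome pair Itga6 and Itgb4 did not pass, with r = 0.55 over 9 animals (exact permutation p = 0.13, adjusted p = 0.14). Neither did Itgal with Itgb2 (r = 0.82, n = 7, exact permutation p = 0.036, adjusted p = 0.061) or Itgam with Itgb2 (r = 0.63, n = 7, exact permutation p = 0.12, adjusted p = 0.14). For Itga6 and Itgb4 the larger cluster left out animals 22 and 24, which had the lowest differences of both chains. For the pairs with Itgb2 it left out animals 17, 21, 22 and 24. These results do not cover the animals left out. The other 3, Itga4 with Itgb7, Itga7 with Itgb1 and Itgav with Itgb8, had r of 0.63, 0.16 and -0.67 and adjusted p of 0.093, 0.73 and 0.070 by exact permutation. Itgb8 was well above background on no array, so nothing about this chain is drawn from its value. Itga4 was well above background on no normal array.

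**Figure D5:**
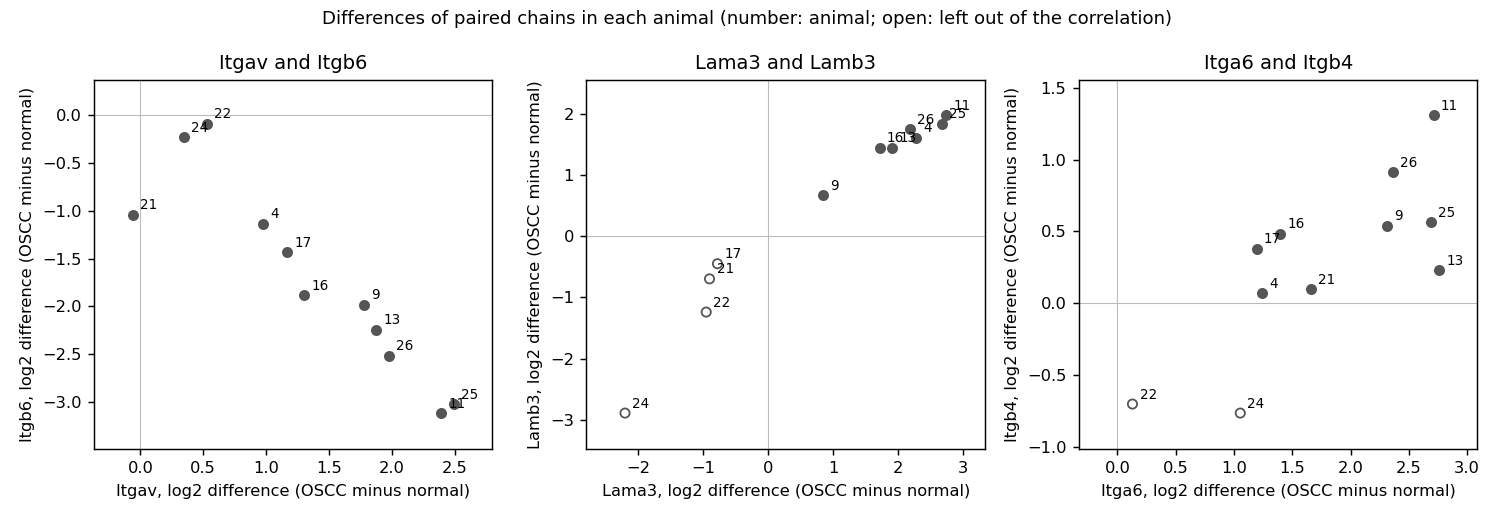
Log2 differences (OSCC minus normal) of 2 chains of 1 protein on the axes, 1 point an animal with its number; open points were left out of the correlation as separate clusters. Itgav and Itgb6 run in opposite directions (r = -0.92), Lama3 and Lamb3 together (r = 0.97), and Itga6 and Itgb4 do not pass the adjusted p (r = 0.55).

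Promoters of 24 of the 32 genes were found in RefSeq (GRCr8), 250 bases before to 50 after each gene's start. The AP-1 site TGANTCA and the PU.1 site GAGGAAGT, which do not overlap, were searched on both strands, and 7.33% and 2.42% of 33469 promoters hold at least 1 match. Among the 24, AP-1 letters were found only in Lama3, with 3 matches, and not in Lamb3, its partner. PU.1 letters were found in 3, Itgav, Itgb6 and Itga11, and in none of the 4 leukocyte integrins with an entry. The 250 bases before the starts of Itgav (plus strand, chr3:89245132-89245381) and Itgb6 (minus strand, chr3:65530334-65530583) are shown because these 2 chains moved in opposite directions, with the PU.1 letters in capitals, on the opposite strand for Itgav. A match is a description of the letters and not of binding.

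Itgav: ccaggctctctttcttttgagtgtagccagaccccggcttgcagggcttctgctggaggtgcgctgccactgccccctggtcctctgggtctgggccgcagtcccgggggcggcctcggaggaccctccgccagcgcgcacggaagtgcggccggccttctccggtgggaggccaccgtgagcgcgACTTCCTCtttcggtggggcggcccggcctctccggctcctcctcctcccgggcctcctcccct

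Itgb6: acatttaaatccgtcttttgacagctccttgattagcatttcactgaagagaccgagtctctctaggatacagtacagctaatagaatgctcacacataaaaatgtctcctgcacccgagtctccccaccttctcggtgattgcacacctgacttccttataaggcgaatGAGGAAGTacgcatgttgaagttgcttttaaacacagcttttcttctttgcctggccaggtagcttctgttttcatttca

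The proteins that integrins and laminins bind were read from 3 further lists. Among 15 hemidesmosome and basement membrane partners 3 were called higher, Col4a1 (1.57, adjusted p = 0.0009) and Col4a2 (1.41, adjusted p = 0.0033), the main type IV collagen chains, and Nid1 (1.19, adjusted p = 0.0013), which links laminin to them. One was called lower, the laminin receptor Bcam (-1.12, adjusted p = 0.0003), and the median of the list was 0.29. Among 19 adhesion adaptors and kinases, the proteins that join beta chains to actin, 1 was called higher and none lower, with a median of 0.17. It was Parvg, the parvin of blood cells (1.74, adjusted p = 0.0004), well above background on no normal array and at 0.20 under normexp correction.

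Among 15 integrin ligands 4 were called higher and none lower, with a median of 0.53. They were Postn (4.79, adjusted p = 0.0006) and Spp1 (4.78, adjusted p = 0.0004), which bind alphav integrins, Tnc (3.59, adjusted p = 0.0014), the tenascin bound by alpha9 and alphav chains, and Thbs1 (3.27, adjusted p = 0.0002). Thbs1 was well above background on no normal array, and its rise was at least 2.22-fold, with 0.82 under normexp correction, short of a call. Fn1, the fibronectin bound by alpha5 beta1 and alphav beta6, differed by 0.87 (adjusted p = 0.050) and was not called.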

How the data were processed

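RNA of 22 pieces of rat tongue was hybridized to one-color Agilent 4x44K arrays, 42877 spots for 30367 probes. Per the file headers, the authors' Agilent Feature Extraction software gave the deposited processed intensity, which is linear, background-subtracted and unscaled; a further deposited table of the authors holds this signal as a ratio to the array's 75th percentile (99.97% of values at or above 0.5 within 2%), used as an alternative. No aligner applies to arrays.

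Control spots and 9196 spots marked as outliers (0.975%) were left out, log2 signals were averaged over the spots of a probe, and the 75th percentile of each array was subtracted. That percentile was 236.8 to 654.9 on normal and 338.7 to 1414 on OSCC arrays, 48.4% to 56.1% and 52.3% to 65.5% of probes were well above background, and none was saturated. The number of arrays limits the precision. All probes were fitted with limma 3.58.1 in R 4.3.3, with animal and tissue as terms; the scripts were tested on simulated data. The pairing comes from 1 rat giving both tissues, and the deviations of paired arrays correlated between -0.21 and 0.24 (median -0.02). Where no array of a tissue measured a gene well above background, the fold is a lower limit against the lowest detected signal of each array.

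The genes, lists and alternatives were chosen with earlier results of these data known. The rule for naming was that all genes are named, with levels in full for called genes, epithelial and leukocyte integrins, Lama3 and Lamb3 where above background, and up to 4 called genes of each partner list, or all where 5 or fewer were called. Summed marker levels are log2 of the summed linear signals. One gene found by its symbol is not reported here, and no count or relation of these genes includes it. Of 16 planned pairs of chains 12 were tested; clusters were split where a gap passed 30% of the range. Gene names are those of the array, positions rn4. Probe sequences were printed only where at least 1 reading frame held no stop codon before its last codon. Whether the probes lie in coding sequence was not assigned.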

Additional observations from a re-analysis of the deposited data

How the results depend on the processing

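None of the 11 called genes changed sign under any alternative run. Of the 21 not called, Itga2, Itga5, Itga10, Itgad, Itgae, Itgb5, Itgb8, Lama4, Lama5 and Lamc3 changed sign under at least 1. Scan day as a term left 0 calls in every group in place of 9 higher and 2 lower; at its unadjusted p the counts were 6 higher and 4 lower, with 0 higher and 1 lower among stromal, vascular, platelet and muscle integrins and 0 higher and 2 lower among laminins. Normexp correction left 2 called higher, the leukocyte integrins Itgam and Itgb2, with 0 epithelial, 0 stromal and 0 laminin genes called higher. Itgb6 (-1.44, limma adjusted p = 0.0031) and Lamb2 (-1.05, limma adjusted p = 0.0043) were still called lower. Of all 30367 probes 686 were called higher and 1015 lower under normexp, and 1 partner relation passed in place of 6. With no fold minimum, 6 genes were lower, while of all 30367 probes 8464 were lower and 4912 higher. The counts were then 5 higher and 2 lower for epithelial integrins, 3 lower for stromal integrins and 2 higher for laminins.

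Without the pairs of animals 21, 22 and 24 there were 4 called lower, of them 2 stromal integrins, and 3 laminins higher. Of all 30367 probes 4285 were then called lower and 2639 higher. In place of 1 laminin called higher there were 0 with quantile normalization, with the array median, without the pairs of animals 4 and 9, or with only probes well above background on at least 6 arrays of a tissue. Leaving out 1 pair at a time gave 8 to 10 genes called higher, 0 to 2 laminins called higher (0 without animal 11 or 25, 2 without animal 24) and 2 to 6 relations, with 3 left without animal 4, 13 or 17 and 2 without animal 22 or 25. Without the replicate block, that is without animal as a term, 9 genes were called higher and 2 lower, and no call changed. The median difference over all probes was -0.24, and it was -0.03 with quantile normalization, -0.44 with the array median, -0.15 with a percentile over detected probes and -0.08 with normexp; the share of all calls that were higher was 49.6%, and 32.8%, 40.3% and 57.3% with the array median, normexp and the percentile over detected probes. The causes of these changes were not tested. With the probes used, signal over background limits Itga2, Itga3, Itga4, Itgae, Itgb3 and Lama1, which no normal array measured well above background. It also limits Itga10, Itgb8, Lama4 and Lamc3, which no array of either tissue measured so. The dimmer Itga10 probe was well above background on 3 OSCC arrays, and the probe described as Lama4 on all arrays.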
